A study of Mus musculus with 6 samples.

Results

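The genes described are those of the mitochondrial ribosomal proteins, the rows of the count table whose symbol begins with Mrpl or Mrps and a number. There were 78 of them among 25664 genes. They were followed in alveolar macrophages, the resident phagocytes of the airspaces, obtained by lung lavage and cell sorting. Of the 6 libraries, 3 were of Vav1cre/+ Pex5fl/fl mice (called Pex5-deficient) and 3 of Pex5fl/fl mice with no recombinase (called control, WT in the column names), so the floxed Pex5 alleles were common to both groups. Vav1-Cre acts in blood-forming cells and all their progeny, which makes the model one of the whole blood lineage and not of macrophages alone. PEX5 is the receptor that carries enzymes into peroxisomes. The labels state neither age nor sex.

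Mitochondria hold ribosomes of their own, built from a small and a large subunit. Their RNA is encoded in the mitochondrial genome, while every protein of them is encoded in the nucleus, made in the cytosol and imported. These ribosomes translate only the mRNAs of the mitochondrial genome, all of which encode subunits of the respiratory chain and the ATP synthase. The small subunit binds the mRNA and reads its codons. The large subunit joins the amino acids and holds the tunnel through which the new protein leaves, next to the inner membrane. Some of the proteins descend from those of bacterial ribosomes and others exist only in mitochondria. Most symbols give the subunit, with exceptions. Mrps30 and Mrps18a are proteins of the large subunit in structures of the mammalian ribosome, and Mrps36 is now known as a part of the 2-oxoglutarate dehydrogenase complex. Placed in this way, 26 members belonged to the small subunit, 51 to the large subunit and 1 to neither.

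Library totals were 13325609 to 19413838 counts in Pex5-deficient and 14226108 to 18987200 in control macrophages. Pex5-deficient replicate 2 stood apart: the 50 most abundant genes made up 30.4% of this library and 38.3% to 42.1% of the other 5, and its scaling factor was 1.34, against 0.899 to 1.03. All 10 markers of alveolar macrophages were detected, and their summed level was 32819 to 76083 CPM (counts scaled to a common library size) in Pex5-deficient and 48631 to 75339 CPM in control libraries. Pex5 itself measured 31.4, 36.3 and 29.6 CPM in Pex5-deficient and 33, 32.1 and 29.7 CPM in control libraries. These values show no fall of Pex5. Counts are per gene, so reads from exons outside the loxP sites may enter them. They therefore do not check the genotype, and recombination was not tested. Of the 10 alveolar macrophage markers 1 fell and 1 rose, where 3.25% of all genes tested were called in either direction. Siglecf, a surface receptor, fell to 219 ± 39 CPM in Pex5-deficient macrophages, against 651 ± 28.6 CPM in control macrophages (SD, n = 3 each, adjusted p = 0.00334 by edgeR). Fabp4, a fatty acid carrier, rose to 203 ± 42.8 CPM in Pex5-deficient macrophages, against 73.5 ± 37 CPM in control macrophages (adjusted p = 0.0482). The other 8 were not called, with Chil3 and Pparg above 0 and 6 below. Of those 6, Ear2 and Itgax were lower without overlap between the groups, as were 13.1% of all genes tested. Ear2 measured 3090 ± 1425 CPM in Pex5-deficient and 9259 ± 2422 CPM in control macrophages (adjusted p = 0.0753 by edgeR). Itgax measured 584 ± 125 CPM in Pex5-deficient and 786 ± 30.7 CPM in control macrophages (adjusted p = 0.243).

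Transcripts of the mitochondrial ribosome were slightly more abundant in Pex5-deficient macrophages, across nearly all members. The 78 genes together took 3028, 2824 and 2960 CPM in Pex5-deficient libraries (replicates 1, 2 and 3, the order used throughout), against 2494, 2557 and 2572 CPM in control libraries. Every Pex5-deficient library lay above every control library. The means were 2937 ± 104 CPM in Pex5-deficient and 2541 ± 41.2 CPM in control macrophages (SD, n = 3 each), a difference of 15.6%. As a share of all counts, the members took 0.291%, 0.377% and 0.27% in Pex5-deficient libraries and 0.224%, 0.235% and 0.266% in control libraries. With scaling by library size alone the summed levels were 2907, 3776 and 2699 CPM in Pex5-deficient and 2243, 2353 and 2657 CPM in control libraries. The groups then still did not overlap, but Pex5-deficient replicate 3 and control replicate 3 lay close together. In bulk samples a change in RNA per cell and a change in which cells were sampled cannot be told apart.

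Gene by gene, the log2 fold change (Pex5-deficient over control) was above 0 for 77 of the 78 members, against 49.9% of the 11011 genes tested. Its median was 0.21, a difference of 15.6%, with the middle of the distribution between 0.12 and 0.31 (the quartiles) and a full range from -0.02 to 0.57. The median of all genes tested was 0. For 44 members all Pex5-deficient libraries exceeded all control libraries, and for 0 members the reverse held. Over all genes tested these shares were 13% and 13.1%. All members but Mrps36 are genes of 1 complex, measured in the same 6 libraries, and they are not replicates of the condition.

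**Figure D1:**
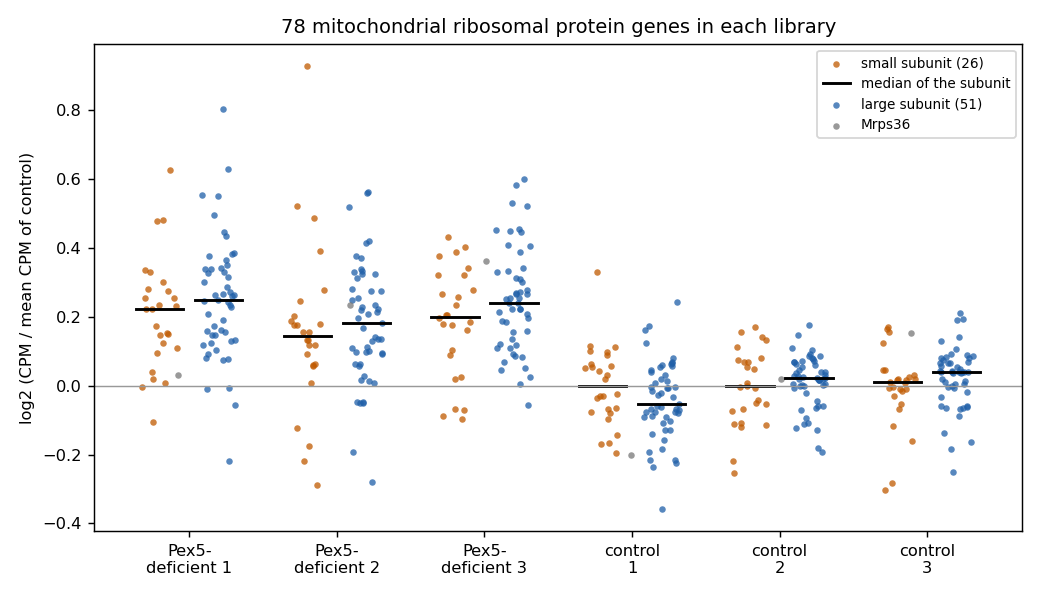
Log2 ratio of each member's CPM to its mean in control, by library, for 26 genes of the small subunit (orange), 51 of the large subunit (blue) and Mrps36 (grey), with black bars at the median of each subunit. The medians of both subunits lie above 0 in each of the 3 Pex5-deficient libraries, and 63, 56 and 65 of the 78 members exceed all control libraries in replicates 1, 2 and 3 of that group.

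Few of these differences passed the test gene by gene. With edgeR (quasi-likelihood test, Benjamini-Hochberg adjusted p under 0.05 over all genes), 1 member was called higher and 0 were called lower, where 1.74% of all genes tested were called higher and 1.51% lower (3.25% in either direction). The share of members called is thus not above that of all genes. At an unadjusted p under 0.05 there were 25 members, all of them higher, against 18.9% of all genes in either direction. Each member had 96 to 2242 reads in a library, although some share sequence or exon bases with other genes. The median coefficient of variation between replicates was 7.65% in Pex5-deficient and 6.01% in control macrophages, and the 95% interval of a member's log2 fold change was typically 0.516 wide.

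**Figure D2:**
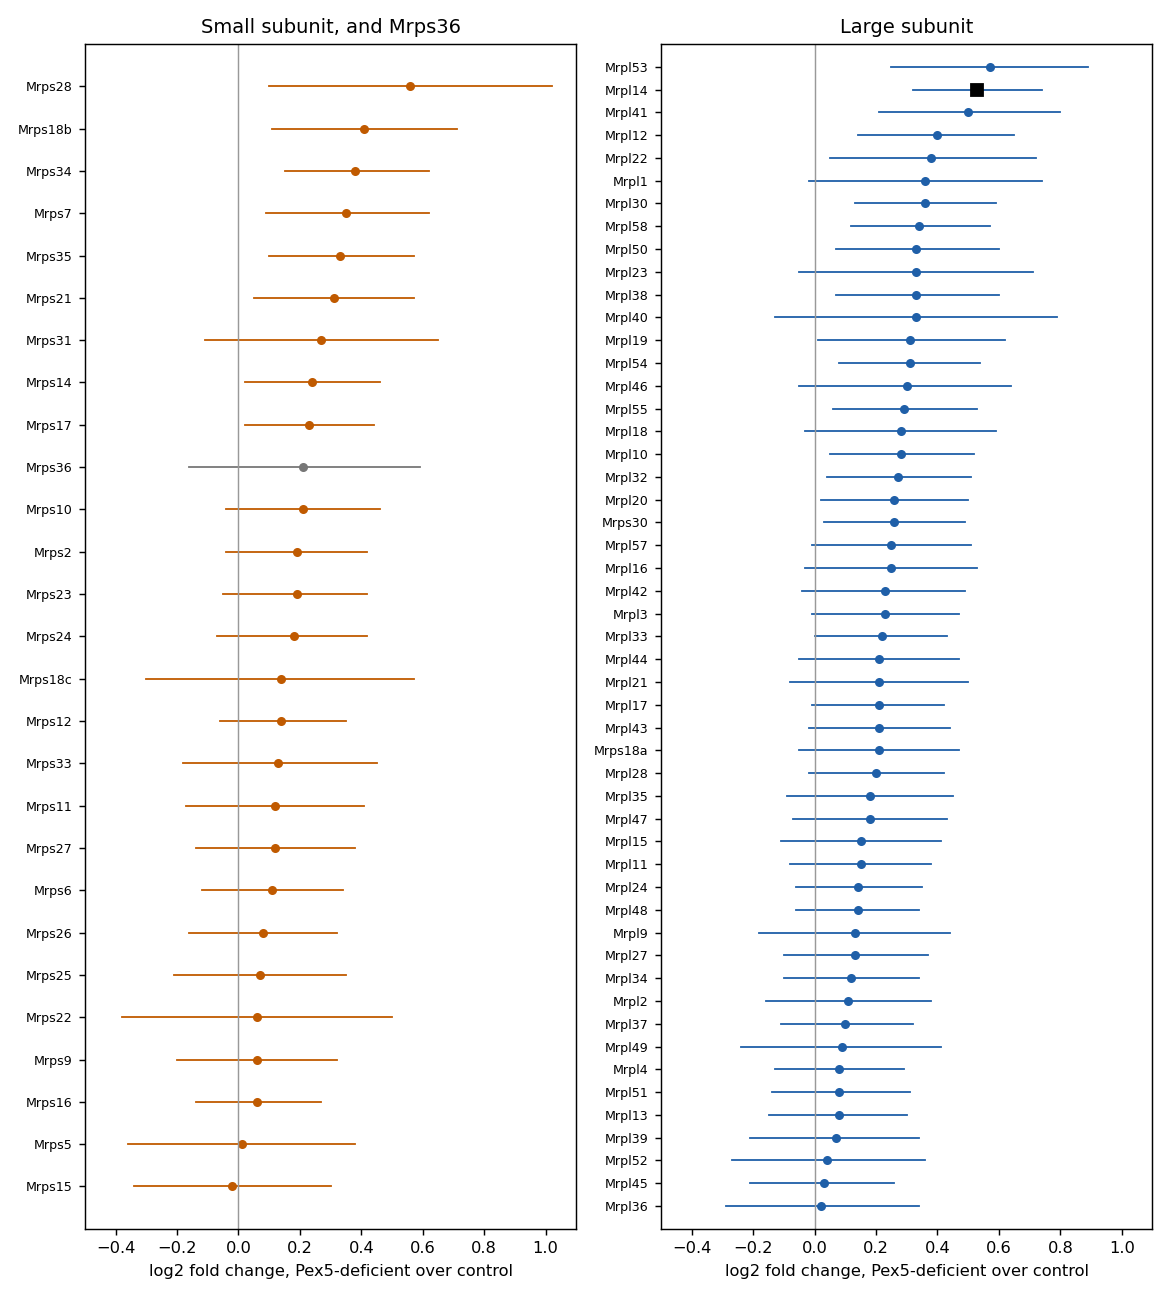
Log2 fold change (Pex5-deficient over control, horizontal axis) of each of the 78 members with its 95% interval from edgeR's quasi-likelihood fit, the small subunit and Mrps36 on the left and the large subunit on the right. The black square marks Mrpl14, the member called, and 25 of the 78 intervals lie wholly above 0.

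The called member was Mrpl14 (ENSMUSG00000023939.7, chromosome 17 from 45686322 to 45698495, plus strand, GRCm38), the protein uL14m of the face of the large subunit that meets the small one, where the assembly factor MALSU1 binds. It measured 71, 69.5 and 70 CPM in Pex5-deficient libraries, against 46.7, 47 and 51.7 CPM in control libraries. The Pex5-deficient values lay within 2 CPM of each other and far above the control values. On the log2 scale it differed by 0.53 ± 0.09 (SE, 3 libraries a group, 95% interval 0.32 to 0.74, adjusted p = 0.0221 by edgeR's quasi-likelihood test). The call held (adjusted p = 0.0314) when the library that stood apart, Pex5-deficient replicate 2, was left out. It ended without Pex5-deficient replicate 1 (adjusted p = 0.0813) or 3 (0.0533) and without control replicate 1 (0.111), 2 (0.0876) or 3 (0.0501). It also ended with scaling by library size alone (0.0664) and with the replicate number as a block (0.112). The log2 fold change of Mrpl14 stayed between 0.51 and 0.70 in these fits. Exons of Tmem63b on the opposite strand cover 11.2% of the exon bases of Mrpl14, which makes its count less certain.

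Other proteins of the large subunit with small p-values were not called. Mrpl53, of the mitochondria-specific proteins, measured 12.8, 12.2 and 11.9 CPM in Pex5-deficient and 7.51, 8.76 and 8.57 CPM in control libraries (log2 fold change 0.57 ± 0.14, adjusted p = 0.0734). A predicted gene on the same strand, Gm42688, covers 88% of its exon bases and shares all of its 100-base words, so this count is uncertain. Mrpl41, likewise specific to mitochondria, measured 33.9, 30 and 34.6 CPM in Pex5-deficient and 19.6, 23.4 and 26.4 CPM in control libraries (0.50 ± 0.13, adjusted p = 0.0816). The groups did not overlap for either gene, and DESeq2 called both (adjusted p = 0.0287 for Mrpl53 and 0.0462 for Mrpl41). Mrpl30, the protein uL30m shared with bacteria, measured 58.1, 50.6 and 57 CPM in Pex5-deficient and 42.9, 41.1 and 45.1 CPM in control libraries (0.36 ± 0.10, adjusted p = 0.0942). Mrpl58, a peptidyl-tRNA hydrolase that releases stalled chains and is also built into the ribosome, measured 27, 27.4 and 29.1 CPM in Pex5-deficient and 21, 22.3 and 22.5 CPM in control libraries (0.34 ± 0.10, adjusted p = 0.105).

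In the stalk, the mobile arm of the large subunit that recruits elongation factors, the groups did not overlap for any of the 3 genes. All 3 were higher in Pex5-deficient macrophages, as were 13% of all genes tested, 56.4% of the members and 60.8% of the large subunit. Mrpl12, whose copies form the arm, measured 91.7, 76.1 and 89 CPM in Pex5-deficient and 59.5, 67.5 and 68 CPM in control libraries. Its log2 fold change was 0.40 ± 0.11 (adjusted p = 0.0992), and without Pex5-deficient replicate 2, where it was lowest of its group, it passed the threshold (0.49, adjusted p = 0.049). With any other library left out it did not pass (adjusted p = 0.186 to 0.311). Mrpl10, which anchors the arm, had a log2 fold change of 0.28 and Mrpl11, at its base, of 0.15, neither called. Genes on the opposite strand cover 13.1% of the exon bases of Mrpl12 and 14.1% of those of Mrpl10, so these counts are less certain. Around the exit of the protein tunnel (Mrpl17, Mrpl22, Mrpl23, Mrpl24, Mrpl45 and Mrpl47) the median log2 fold change of 6 genes was 0.19. It ran from 0.03 for Mrpl45, which ties the ribosome to the inner membrane, to 0.38 for Mrpl22, which lines the tunnel. Mrpl22 shares 20.1% and Mrpl23 64.1% of their 100-base words with other genes. Genes on the opposite strand cover 26.3% of the exon bases of Mrpl24 and 13.9% of those of Mrpl47. Counts of these 4 genes are less certain. In the central protuberance, the crown of the large subunit that meets the head of the small one, the median of 8 genes was 0.30. Mrpl40 of that group measured 70.4 CPM in Pex5-deficient replicate 1, but 40.5 and 41.6 CPM in Pex5-deficient replicates 2 and 3, against 38.2, 41.4 and 41.4 CPM in control libraries. Of its libraries 1 thus stood above all others, and the log2 fold change was 0.33 ± 0.20.

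Members of the small subunit gave a median log2 fold change of 0.16 over 26 genes, with 13 genes whose groups did not overlap, all higher in Pex5-deficient macrophages, and 0 called, where 13% of all genes tested were higher without overlap and 1.74% were called higher. Those of the large subunit gave 0.22 over 51 genes, with 31 such genes and 1 called. Mrps34, a mitochondria-specific protein, measured 52.6, 59.9 and 50.6 CPM in Pex5-deficient and 43.6, 41.7 and 39.8 CPM in control libraries (0.38 ± 0.10, adjusted p = 0.0899). Exons of Mapk8ip3 on the opposite strand cover 63.4% of its exon bases, which makes the value uncertain. Mrps28, the relative of bacterial S1 named bS1m, had the largest estimate of the small subunit (0.56 ± 0.20, adjusted p = 0.179), with 14.8, 23.6 and 16.1 CPM in Pex5-deficient and 13.3, 10.4 and 13.5 CPM in control libraries. The spread was wide in Pex5-deficient macrophages, where replicate 2 stood above the others, and without that library the log2 fold change was 0.33, below that of Mrps18b (0.52). Mrps35, a mitochondria-specific protein, had 0.33 ± 0.10, Mrps7, which organises the head that swivels during translation, 0.35 ± 0.12, and Mrps21, of the platform, 0.31 ± 0.11 (adjusted p = 0.128, 0.150 and 0.185).

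For Mrps5, Mrps12 and Mrps24, which line the path of the mRNA into the small subunit and the decoding centre, the log2 fold changes were 0.01, 0.14 and 0.18, and none was called. Mrps15 was the only member with an estimate below 0 (-0.02 ± 0.14, and 0.12 with scaling by library size alone), with 91.7, 63 and 73.4 CPM in Pex5-deficient and 79.7, 73.3 and 77.8 CPM in control libraries. The Pex5-deficient values lay on both sides of the control values. Mrpl36 of the large subunit behaved likewise, with 96.8, 67.3 and 85.7 CPM in Pex5-deficient and 82.1, 85.1 and 78 CPM in control libraries (0.02 ± 0.14). These 2 abundant short transcripts were both highest in Pex5-deficient replicate 1 and lowest in Pex5-deficient replicate 2.

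Set against each other, the subunits kept nearly the same proportion. Genes of the small subunit summed to 887 ± 26.2 CPM in Pex5-deficient and 782 ± 2.4 CPM in control macrophages, a difference of 13.5%, and those of the large subunit to 2039 ± 79.4 CPM in Pex5-deficient and 1750 ± 37.7 CPM in control macrophages, a difference of 16.5% (SD, n = 3 each). The ratio of small to large was 0.435, 0.442 and 0.429 in Pex5-deficient libraries, against 0.456, 0.444 and 0.441 in control libraries. The groups overlapped, and the mean ratio was 0.435 ± 0.0067 in Pex5-deficient and 0.447 ± 0.00835 in control macrophages. With the subunit taken from the gene symbol the ratios were 0.501, 0.502 and 0.492 in Pex5-deficient and 0.519, 0.507 and 0.504 in control libraries, and these no longer overlapped. Descent made little difference to the median: it was 0.21 and 0.23 for the shared and the mitochondria-specific proteins of the large subunit, and 0.16 for either kind in the small subunit.

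**Figure D3:**
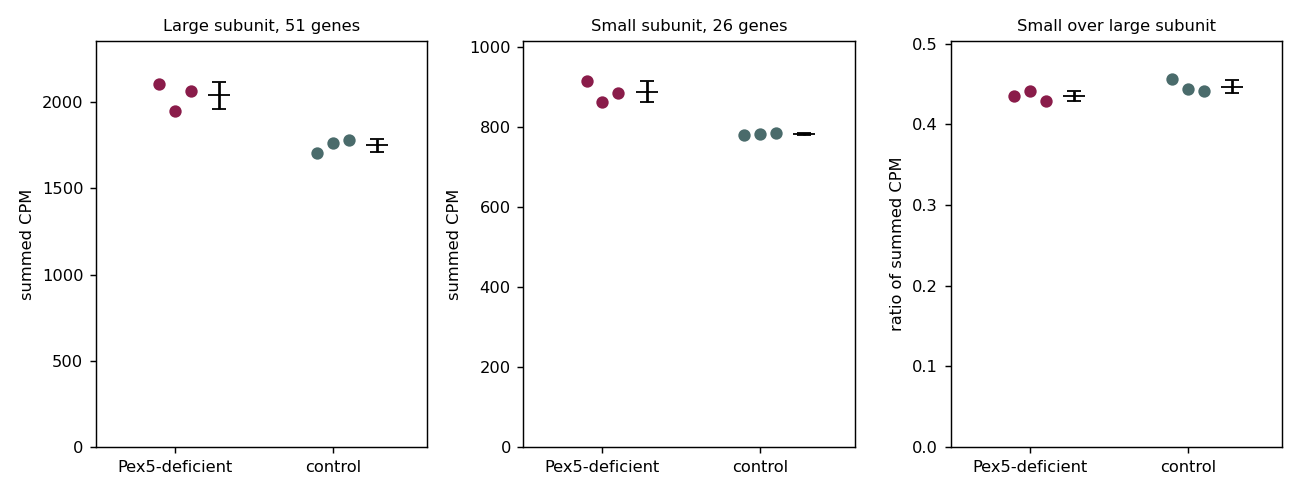
Summed CPM of the large and the small subunit, and their ratio, in Pex5-deficient (left) and control (right) libraries, with points for the 3 replicates in order and bars for the mean ± SD. Both sums are higher in every Pex5-deficient library, while the ratios of 0.429 to 0.442 in Pex5-deficient and 0.441 to 0.456 in control libraries meet at their edges.

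3 members descend from the same bacterial protein, bS18, and occupy different places: Mrps18c in the small subunit at the bacterial position, Mrps18b elsewhere in the small subunit, and Mrps18a in the large subunit. Mrps18b measured 36.1, 26.9 and 30.6 CPM in Pex5-deficient and 21.2, 25.3 and 23.7 CPM in control libraries (log2 fold change 0.41 ± 0.13, adjusted p = 0.142), with no overlap, although the predicted gene Gm16279 on the other strand covers 30.5% of its exon bases. Mrps18a measured 51.9, 40.2 and 46.2 CPM in Pex5-deficient and 38.2, 40.3 and 40.9 CPM in control libraries (0.21 ± 0.11, adjusted p = 0.361). For Mrps18c the values were 32.5, 29 and 42.6 CPM in Pex5-deficient and 39.7, 29.1 and 26 CPM in control libraries (0.14 ± 0.19, adjusted p = 0.750). The groups overlapped for Mrps18a and Mrps18c, and the 3 intervals overlapped one another. On the same strand, the gene Gm43511 covers 23.2% of the exon bases of Mrps18c. Mrps30 of the large subunit had 0.26 ± 0.10 (adjusted p = 0.215) and Mrps36, of the dehydrogenase, 0.21 ± 0.16 (adjusted p = 0.524).

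Most of the proteins occur in equal numbers in a ribosome, but their transcripts differed widely in level. Per length of the principal transcript, levels averaged over the groups ran from 3.27 to 161 CPM per kb, a 49.2-fold range, with a median of 18.3. Mrpl33 had 173 ± 9.99 CPM per kb in Pex5-deficient and 149 ± 5.35 in control macrophages (SD, n = 3 each), ahead of Mrpl14, Mrpl36 and Mrpl20 in the large subunit. In the small subunit Mrps15 led with 81.1 ± 15.5 CPM per kb in Pex5-deficient and 82.1 ± 3.52 in control macrophages, before Mrps24, Mrps21 and Mrps6. Lowest were Mrpl19 (3.63 ± 0.384 in Pex5-deficient and 2.91 ± 0.246 CPM per kb in control) and Mrpl1 in the large subunit, and Mrps5 (3.39 ± 0.664 in Pex5-deficient and 3.35 ± 0.261 CPM per kb in control) and Mrps25 in the small one. Genes on the opposite strand cover 36% of the exon bases of Mrpl19 and 69.8% of those of Mrps25, so these low levels are uncertain. For Mrps24 and Mrps6, genes on the same strand cover 15.4% and 19.9%. Across the 78 genes the log2 levels of the groups correlated with r = 0.994, a description over genes that share libraries and lengths. The order rests on the length used: with the summed exon length of each gene Mrpl33 fell to rank 32 of 51, Mrpl36 moved to rank 1 of its subunit, and Mrpl14 and Mrps15 kept ranks 2 and 1 of theirs.

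**Figure D4:**
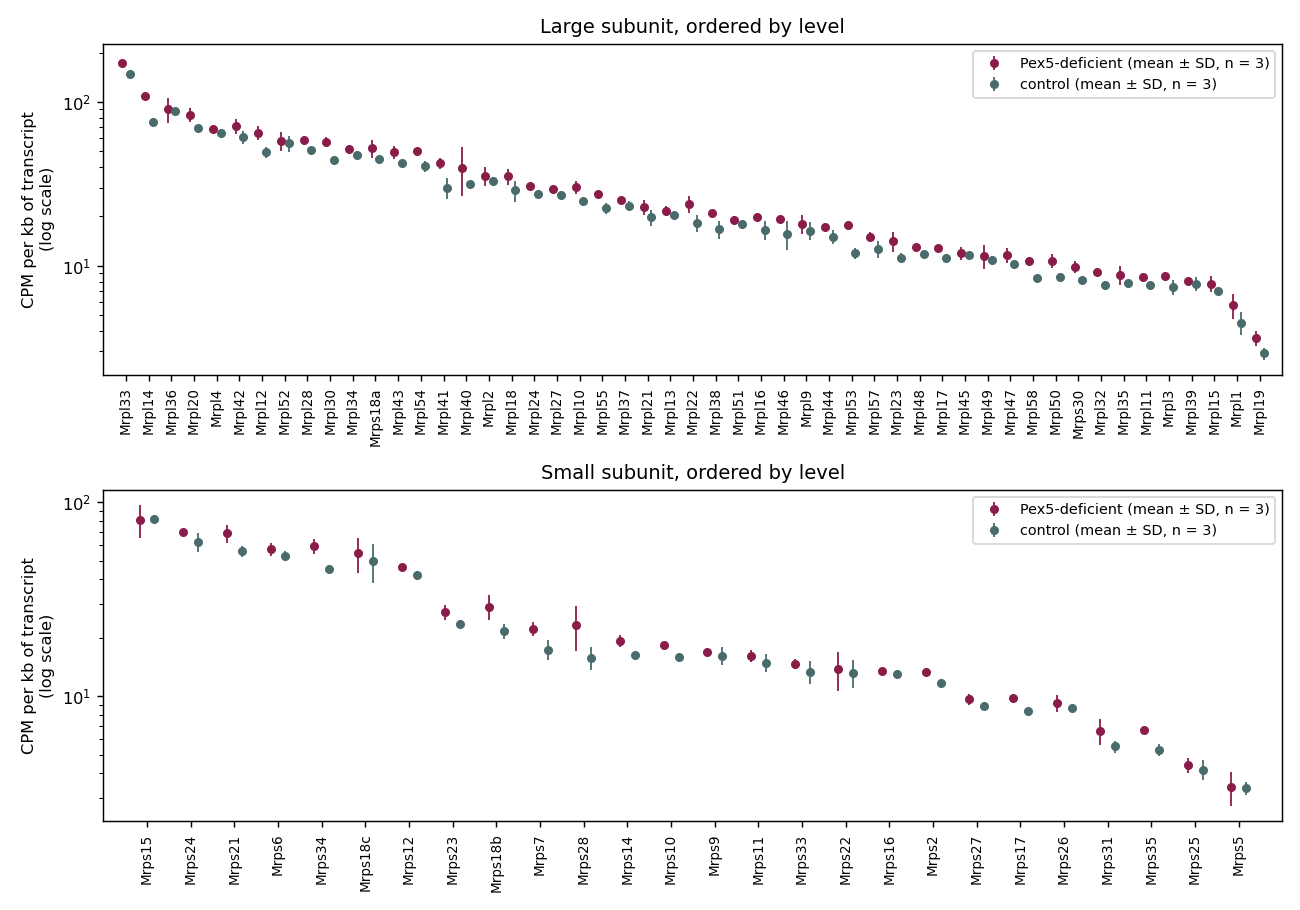
CPM per kb of principal transcript on a log scale for each gene of the large (top) and small (bottom) subunit, ordered by the mean over both groups, as mean ± SD of 3 libraries. Levels run from 3.27 to 161 CPM per kb, and the order is nearly the same in Pex5-deficient and control macrophages.

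Fold changes over all genes moved with transcript length, and the members are mostly short. Over all genes the median was 0.12 on the log2 scale for transcripts under 1 kb, 0.13 from 1 to 1.5 kb, 0.04 from 1.5 to 2.5 kb and -0.05 over 2.5 kb. The members' medians in the same classes were 0.23 (25 genes), 0.21 (22 genes), 0.16 (10 genes) and 0.21 (21 genes), above that of all genes in every class. After the trend with length was removed, a step chosen after seeing the data, the median was 0.14 for all members, 0.08 for the small subunit and 0.17 for the large subunit, and 66 of 78 members lay above the trend, against 49.8% of all genes. The part of length in the result was not tested further. For the 52 members that share at most 10% of their words with another gene and have at most 10% of their exon bases overlapped, the median was 0.20 without that removal, and 51 of them were above 0.

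**Figure D5:**
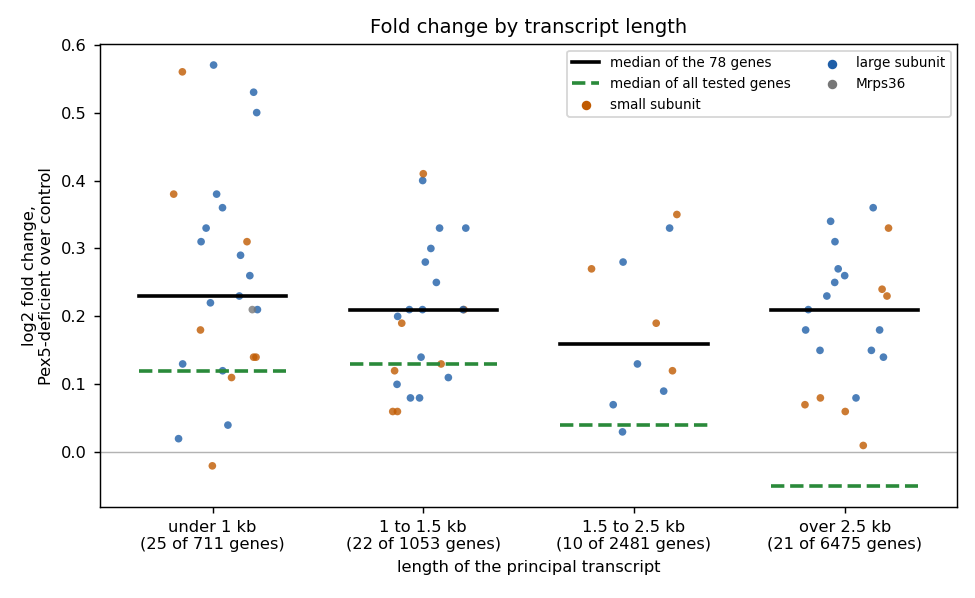
Log2 fold change (Pex5-deficient over control) of each member by length class of its principal transcript, with the members' median (black) and the median of all tested genes (green, dashed). The members' medians of 0.16 to 0.23 lie above those of all genes, which fall to -0.05 in the longest class.

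Promoter windows are printed because the members moved together. Those of the 3 members with the smallest p, Mrpl14, Mrpl53 and Mrpl41, run from 150 bases before to 20 after the annotated start (RefSeq, GRCm38.p6), on the strand of the gene, at chr17:45686199-45686368 (plus), chr6:83108958-83109127 (plus) and chr2:24975079-24975248 (minus). Capitals mark a match to the NRF1 motif, which only Mrpl14 holds here.
Mrpl14: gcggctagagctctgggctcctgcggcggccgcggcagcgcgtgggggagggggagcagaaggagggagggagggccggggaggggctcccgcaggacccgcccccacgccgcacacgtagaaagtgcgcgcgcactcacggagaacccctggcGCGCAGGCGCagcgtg
Mrpl53: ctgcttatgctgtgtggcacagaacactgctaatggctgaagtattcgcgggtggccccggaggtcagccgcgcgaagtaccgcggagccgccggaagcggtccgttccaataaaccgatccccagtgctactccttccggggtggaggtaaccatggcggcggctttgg
Mrpl41: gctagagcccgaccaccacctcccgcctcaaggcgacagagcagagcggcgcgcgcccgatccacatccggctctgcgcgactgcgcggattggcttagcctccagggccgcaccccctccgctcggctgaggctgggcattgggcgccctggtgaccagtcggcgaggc

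3 motifs of factors known to act on nuclear genes for mitochondrial proteins were searched on both strands of the windows from 250 bases before to 50 after the start. The core of the NRF1 motif, of the form in capitals in the Mrpl14 window with any base at its 6th place, was in windows of 13 of the 69 members with a window (18.8%), against 5.19% of all 27025 genes with one. CCGGAAGT, bound by ETS factors such as GABPA, was in 12 (17.4%, against 4.31%), and the YY1 motif in 5 (7.25%, against 0.995%). The 27025 genes include ones not among the 11011 tested here. Shares over tested genes alone were not taken, so the excess may not be particular to the members. The NRF1 matches of the 3 holders with the smallest p illustrate the core with its flanks, the match in capitals, at chr17:45686343-45686372, chr1:37890384-37890413 and chr11:120484546-120484575. All are printed as the plus strand, on which these genes lie. The motif itself matched the plus strand in Mrpl14 and the minus strand in Mrpl30 and Mrpl12, whose capitals are thus its reverse complement.
Mrpl14: aacccctggcGCGCAGGCGCagcgtgcggg
Mrpl30: tgacgccgctGCGCCTGCGCtgtcttctat
Mrpl12: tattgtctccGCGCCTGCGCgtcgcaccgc
The match began 5 bases into the transcript of Mrpl14 and lay upstream of the start in the other 2 genes. Members with and without the NRF1 core had the same median log2 fold change, 0.21, while those with the ETS core had 0.14 and those without it 0.21, and those with the YY1 motif had 0.12 and those without it 0.21. These differences were not tested. A match is a string of letters and shows no binding. Of the genes of these factors, Nrf1 measured 25.7, 23.2 and 20.6 CPM in Pex5-deficient and 24.8, 25.1 and 31.1 CPM in control libraries (log2 fold change -0.22 ± 0.13, adjusted p = 0.407). Gabpa had -0.05 ± 0.09 and Yy1 0.23 ± 0.21 (adjusted p = 0.801 and 0.595). The growth regulator Myc measured 29.7, 30.1 and 25 CPM in Pex5-deficient and 18.6, 20.6 and 24 CPM in control libraries, with no overlap (0.42 ± 0.13, adjusted p = 0.126). Of 9 tested regulators of mitochondrial biogenesis 0 were called, with a median of 0.05.

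2 members share a promoter region. Mrpl46, of the central protuberance, and Mrps11, of the platform, lie head to head on chromosome 7 (78775236 to 78783531 on the minus strand and 78783119 to 78792989 on the plus strand), with 173 exon bases in common. Mrpl46 measured 22.4, 21.4 and 21.8 CPM in Pex5-deficient and 13.8, 19 and 20.5 CPM in control libraries (log2 fold change 0.30, not called). Mrps11 measured 15.8, 17.2 and 18.1 CPM in Pex5-deficient and 14, 17.3 and 15.8 CPM in control libraries (0.12, not called). The groups were apart for Mrpl46 and met for Mrps11.

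5 proteins of the same ribosome carry other symbols. Chchd1, a small protein of the small subunit, measured 33.6, 35.7 and 34.8 CPM in Pex5-deficient and 24.1, 27.4 and 25.3 CPM in control libraries (log2 fold change 0.44 ± 0.10, adjusted p = 0.0494). Its call was at the edge of the threshold and ended without any 1 of the 6 libraries (adjusted p = 0.0726 to 0.183). Among the other alternatives it held only with DESeq2 (adjusted p = 0.0231). With limma-voom the adjusted p was 0.061, and with the replicate number as a block 0.172. Aurkaip1, also of the small subunit, measured 94.6, 91.6 and 96 CPM in Pex5-deficient and 75.3, 77.7 and 78.5 CPM in control libraries (0.29 ± 0.09, adjusted p = 0.130), again with no overlap. Ptcd3, a pentatricopeptide protein at the mRNA entry, had 0.29 ± 0.19, and Gadd45gip1, of the large subunit, 0.20 ± 0.11. Dap3, a GTP-binding protein of the head known also from cell death, had an estimate of -0.02 ± 0.10 (0.13 with scaling by library size alone), with 40.8, 36.5 and 40.5 CPM in Pex5-deficient and 40.7, 36.4 and 42.3 CPM in control libraries.

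Of 25 tested factors of ribosome assembly and ribosomal RNA modification 1 rose and 0 fell, a share near the 3.25% called over all genes, 22 had an estimate above 0 and the median log2 fold change was 0.18. Trub2, a pseudouridine synthase needed for the large subunit's RNA, measured 27.1, 23.9 and 24.1 CPM in Pex5-deficient and 16, 13.9 and 17.8 CPM in control libraries (0.65 ± 0.13, adjusted p = 0.0339). Its call ended without Pex5-deficient replicate 1 (0.119) or 3 (0.0635) and without control replicate 1 (0.123) or 2 (0.111). It also ended with scaling by library size alone (0.0774) and with the replicate number as a block (0.11). Malsu1, which binds Mrpl14 and is named here after its value was seen, had 0.57 ± 0.13 (adjusted p = 0.0524). Of 15 tested translation factors 0 were called (median 0.09), with Slirp, which stabilises mitochondrial mRNAs, at 0.21 ± 0.10 and Mrrf, which recycles ribosomes, at 0.25 ± 0.11. Of 20 mitochondrial aminoacyl-tRNA synthetases 0 were called (median 0.10), with the tyrosine enzyme Yars2 at 0.54 ± 0.15 (adjusted p = 0.0928) and the asparagine enzyme Nars2 at 0.42 ± 0.19. Of 11 tested factors of the mitochondrial genome and its transcription 0 were called (median 0.08), with the elongation factor Tefm at 0.34 ± 0.20 and the exonuclease Mgme1 at 0.22 ± 0.13.

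The tested mRNAs that these ribosomes translate went the other way. Of 13 mRNAs of the mitochondrial genome 9 were tested, all with an estimate below 0. By edgeR's quasi-likelihood test 2 fell, where 1.51% of all genes were called lower. These mRNAs were counted unevenly. In a library mt-Co1 had 47581 to 160436 reads, but mt-Co2, mt-Co3, mt-Atp6 and mt-Nd4l had at most 2, 15, 9 and 20. Those last were not tested, while mt-Atp8 was, on 0 to 15 reads. The source of this unevenness was not tested, and it limits what the estimates say of the mRNAs. mt-Nd6, a subunit of complex I, measured 46.1, 39.2 and 56.2 CPM in Pex5-deficient and 143, 112 and 74.1 CPM in control libraries (log2 fold change -1.22 ± 0.23, adjusted p = 0.0302). mt-Nd4, of the same complex, measured 343, 242 and 429 CPM in Pex5-deficient and 943, 785 and 560 CPM in control libraries (-1.17 ± 0.26, adjusted p = 0.0463). For both the groups stood apart, but the spread within each was wide. The call of mt-Nd6 ended without Pex5-deficient replicate 1 (0.114) or 2 (0.0537) or control replicate 1 (0.104) or 2 (0.0903). That of mt-Nd4 ended without Pex5-deficient replicate 1 (0.155) or control replicate 1 (0.170), 2 (0.133) or 3 (0.0547). Both also ended with the replicate number as a block (0.109 for mt-Nd6 and 0.148 for mt-Nd4). With only genes of a mean of at least 5 CPM, mt-Nd4 was not called either (0.0558). The summed level of the 13 mRNAs was 8757, 4428 and 15532 CPM in Pex5-deficient and 27643, 18184 and 11707 CPM in control libraries, so that the groups overlapped. The 2 ribosomal RNAs of the mitochondrial genome were looked for by symbol and had no row among the counts.

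Markers of other cells were few. The 12 markers of dividing cells summed to 471 to 538 CPM in Pex5-deficient and 574 to 630 CPM in control libraries, and 0 of them were called (median log2 fold change -0.23). Their part in the result was not tested. Of 7 neutrophil markers 5 were at 0 in every library, S100a9 and Ly6g among them, while S100a8 and Cxcr2 rose, and the list summed to 48.4 to 64.7 CPM in Pex5-deficient and 11.0 to 14.1 CPM in control libraries. Its part in the result was not tested. Markers of T cells, B cells, type 2 pneumocytes, club cells, eosinophils, and monocytes or interstitial macrophages summed to at most 6.28 CPM in any library.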

How the data were processed

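Gene expression was measured by RNA sequencing in 6 libraries. Per the labels' protocols, RNA of sorted macrophages was made into stranded SMART-Seq libraries and read single-end. The authors deposited raw counts per gene in 1 table of 25664 symbols. Per the submitters' processing notes STAR, featureCounts, R 4.3.2 and DESeq2 1.40.1 were used, with the builds GRCm38.p5 and mm10. Their order, the gene annotation and whether counting used strand are not stated there. Reads of genes that overlap on opposite strands may thus not have been told apart. Library totals ran from 13325609 to 19413838 counts.

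edgeR's filterByExpr, with a minimum count of 10 and a minimum total of 15, kept 11011 genes and all 78 members. Libraries were scaled with TMM factors, and CPM are on the scaled library sizes. Groups were compared with edgeR's quasi-likelihood F test (edgeR 4.0.16, R 4.3.3), two-sided. Benjamini-Hochberg adjustment covered the whole table, and genes under 0.05 were called. Alternatives were other scaling factors and filters, DESeq2 1.42.0, limma-voom (limma 3.58.1), the replicate number as a block, and each library left out. Transcript lengths, gene positions and words of 100 bases shared with other genes came from GENCODE M21 (GRCm38). Lengths are those of the principal transcript, which 10720 of the genes tested have. Promoter windows came from RefSeq (GRCm38.p6), which held them for 69 of the members.

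The members, the lists of other genes and the roles were chosen with earlier results of these data known. Members are named when called, when among the 6 smallest p, the 4 highest or the 2 lowest levels per length of their subunit, or when their symbol and their place in the ribosome differ. Other members named are given for a role or after their values were seen. The labels do not say whether each library is a separate mouse. The p-values then reflect the spread among these libraries alone, part of which may be technical. Counts are of reads amplified by PCR with no molecular identifiers named.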

Additional observations from a re-analysis of the deposited data

How the results depend on the processing

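The members' median log2 fold change, 0.21, was 0.38 with scaling by library size alone (0.33 for the small and 0.39 for the large subunit), a setting that moved the median of all genes by 0.17, and the log2 ratio of summed CPM then was 0.36. It ranged from 0.18 to 0.25 when a library was left out (0.15 to 0.21 for the small and 0.18 to 0.27 for the large subunit), and was 0.14 with the length trend removed (0.08 and 0.17). At least 74 of 78 members stayed above 0 in every fit. The count of members called, 1, was 3 with DESeq2 (Mrpl14, Mrpl41 and Mrpl53), 0 with library size alone, and 0 to 2 with a library left out. The count over all genes, 358, was 755 with DESeq2 and 76 to 523 with a library left out. Same-numbered libraries did not deviate together (r = -0.214, -0.0618 and -0.411). The labels do not say whether equal numbers share a batch or day, and so few libraries cannot decide it. A replicate block gave 83 calls over all genes and 0 among the members.

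Estimates near 0 changed sign in some fits, and none of these was called. Mrps15 (-0.02) was 0.12 with library size alone and -0.17 to 0.11 with a library left out. Mrps5 (0.01) was -0.02 with limma-voom and -0.15 to 0.13 with a library left out. With a library left out, Mrpl36 ran from -0.10 to 0.17, Mrps18c from -0.04 to 0.33 and Pex5 from -0.04 to 0.10. Dap3 (-0.02) was 0.13 with library size alone and -0.08 to 0.05 with a library left out. No member has a symbol that marks a pseudogene, so that alternative was not run. With 3 libraries a group, single members near the median could not be told from no change after adjustment over all genes. The unadjusted 95% intervals of some of them lay just above 0.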
